A study of Homo sapiens with 12 samples.

Results

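The mitochondrial ribosomal protein genes were described as 1 family across 12 libraries of Caco-2 spheroids. The members were all protein-coding genes of the deposited table whose symbol begins with MRPL or MRPS followed by a number, which gave 77 of 48162 genes. The 77 entries carry 76 distinct symbols, because MRPS17 is listed under 2 identifiers. By the structure of the human mitochondrial ribosome, 49 members were assigned to the large subunit and 27 to the small subunit. MRPS18A and MRPS30 were counted with the large subunit, where their proteins sit despite their names. MRPS36 was counted with neither, since its protein is now described as a part of the alpha-ketoglutarate dehydrogenase complex. A relative in bacterial ribosomes is known for 48 of the members, and 28 are specific to mitochondria.

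Caco-2 is an established line from a human colorectal adenocarcinoma that takes on features of small-intestinal absorptive cells. In every group the cells were at passage 26, had formed spheroids in Matrigel over 5 days in DMEM with 20% fetal bovine serum, and were exposed for 4 h. The control group received carrier fluid only. The other groups received methotrexate, lactoferrin, or methotrexate together with lactoferrin, with doses not stated in the labels. Methotrexate is an antifolate that inhibits dihydrofolate reductase, and lactoferrin is a milk glycoprotein that binds iron. Each group held 3 libraries. Nothing in the labels says whether separate cultures were used, and p-values therefore measure only the spread between these libraries, which may be technical.

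Mitochondrial ribosomes translate the few messages encoded by mitochondrial DNA, all of which specify subunits of the oxidative phosphorylation complexes. The RNA of these ribosomes is encoded in the mitochondrion, while every one of their proteins is encoded in the nucleus, made in the cytosol and imported. The small subunit binds the message and decodes it, and the large subunit forms the peptide bond and holds the exit tunnel. Folate metabolism and mitochondrial translation are connected in textbook biochemistry through the formyl group on the initiator methionyl-tRNA. In absorptive epithelium, oxidative phosphorylation supplies much of the energy for transport.

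Some short sequence elements were more frequent in the promoters of the members than in those of all genes, though none was in most of them. Promoter windows from RefSeq (GRCh38.p14) were found for 67 of the 76 symbols, and 300 bases, 250 before and 50 after the annotated start, were searched on both strands. Only the first listed window of each symbol was used, for members and for all genes, so any other annotated start was not searched. The ETS core CCGGAAG, a sequence bound by factors such as GABP (also called NRF2), was present in 28 of the 67 member promoters (41.8%), compared with 10.7% of 27305 promoters of all genes and 14.3% of 14016 promoters of coding genes. The YY1 core AAGATGGC was present in 20 (29.9%), compared with 3.03% of all promoters and 4.05% of coding ones. The NRF1 core GCATGCGC was present in 6 (8.96%), compared with 3.27% and 4.36%. The E-box CACGTG was also present in 6 member promoters (8.96%), a share close to the 8.93% of coding promoters. The TATA box TATAAA was found in 2 members (2.99%), against 12% of all and 9.38% of coding promoters. The E-box is its own reverse complement, and no motif contains another. These matches describe letters in a window and are not evidence of binding. The median GC content was 60.3% for member promoters and 58.3% for all promoters.

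The upstream 250 bases of 5 promoters are printed here. Among members that have a window and are not low in counts, they belong to the 2 with the largest called rise and the 2 with the largest called fall between methotrexate and control on the main scaling, and to the member with the highest level per kilobase. Each is written 5′ to 3′ on the strand of its gene and ends at the base before the annotated start, and capitals mark a match to 1 of the 5 motifs on either strand. The windows are MRPS21 at chr1:150293611-150293860 on the plus strand, MRPS15 at chr1:36464385-36464634 on the minus strand, MRPL11 at chr11:66438849-66439098 on the minus strand, MRPL48 at chr11:73787624-73787873 on the plus strand, and MRPL51 at chr12:6493263-6493512 on the minus strand.
MRPS21: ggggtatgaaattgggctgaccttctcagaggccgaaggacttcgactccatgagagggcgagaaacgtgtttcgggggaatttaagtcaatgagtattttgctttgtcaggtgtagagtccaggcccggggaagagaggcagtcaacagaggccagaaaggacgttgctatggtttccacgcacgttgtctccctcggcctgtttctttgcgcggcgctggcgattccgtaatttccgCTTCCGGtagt
MRPS15: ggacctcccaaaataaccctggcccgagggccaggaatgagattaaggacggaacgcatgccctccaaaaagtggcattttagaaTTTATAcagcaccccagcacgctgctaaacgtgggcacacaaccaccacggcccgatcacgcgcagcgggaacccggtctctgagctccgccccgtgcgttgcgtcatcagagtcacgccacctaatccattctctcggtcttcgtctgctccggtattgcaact
MRPL11: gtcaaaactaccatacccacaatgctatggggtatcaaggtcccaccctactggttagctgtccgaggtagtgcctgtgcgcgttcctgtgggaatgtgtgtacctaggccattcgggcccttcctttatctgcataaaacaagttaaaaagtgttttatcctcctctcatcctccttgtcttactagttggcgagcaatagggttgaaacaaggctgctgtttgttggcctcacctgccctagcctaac
MRPL48: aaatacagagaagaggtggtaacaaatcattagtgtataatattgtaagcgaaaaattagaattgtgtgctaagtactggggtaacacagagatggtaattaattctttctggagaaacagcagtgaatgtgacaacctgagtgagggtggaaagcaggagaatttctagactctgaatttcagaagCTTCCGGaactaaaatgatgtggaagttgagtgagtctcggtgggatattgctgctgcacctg
MRPL51: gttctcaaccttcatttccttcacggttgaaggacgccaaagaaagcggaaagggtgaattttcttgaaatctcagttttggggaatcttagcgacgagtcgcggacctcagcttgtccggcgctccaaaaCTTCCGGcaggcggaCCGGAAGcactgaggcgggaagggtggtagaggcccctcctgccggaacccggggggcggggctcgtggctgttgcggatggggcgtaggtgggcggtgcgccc
MRPS21 has an ETS core at 11 bases before its start, on the opposite strand. MRPL48 has one at 63 bases before the start, also on the opposite strand. MRPL51 has 2, at 119 bases before the start on the opposite strand and at 104 bases before it on the strand of the gene. MRPS15 has a TATA box sequence on the opposite strand at 165 bases before the start, and the printed MRPL11 window holds no match.

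The members are scattered over 21 chromosomes in the table's hg19 annotation. For 27 of the 76 symbols another coding gene starts on the opposite strand within 1000 bases. In 1 such pair both genes are members: MRPS11 and MRPL46 on chromosome 15 start 34 bases apart and run in opposite directions. Of the 77 members, 31 overlap no other gene, 46 overlap some gene, and 12 overlap a coding gene on the same strand. The labels do not say how reads in such overlaps were counted, and the values of these members are uncertain to that extent.

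Libraries held 18714054 to 60591667 counts, and the 3 methotrexate libraries were the deepest, with at least 47459811 counts each. The methotrexate libraries also differed from all others in markers of other cell types. The summed level of 10 fibroblast markers was 106 to 121 CPM (counts per 1000000 counts of the scaled library) in control and 9582 to 11041 in methotrexate. The summed level of 10 adipocyte markers was 186 to 197 CPM in control and 16050 to 16764 in methotrexate. Defining markers such as DPT and DCN of fibroblasts and ADIPOQ of adipocytes were at or near 0 in the other groups, including methotrexate with lactoferrin, and all 20 markers had counts in the methotrexate libraries. The 6 endothelial markers analysed summed to 1.89 to 2.64 CPM in control and 9.33 to 10.5 in methotrexate. The 7 blood and immune markers summed to 29.1 to 32.3 and 33.8 to 41.7, a sum that hides opposite changes. Mean CD14 was 13.5 CPM in control and 29.3 in methotrexate, PTPRC 0.135 and 0.418, and LYZ 17.3 and 7.48. HBB and CD68 were at 0 in every group and so cannot tell the groups apart. Enterocyte and Caco-2 markers summed to 3230 to 3332 CPM in control and 1565 to 1623 in methotrexate. The part of these other cell types' RNA in the results below was not tested, and in bulk RNA fewer cells of a type and less RNA per cell cannot be told apart. The methotrexate label and this difference in makeup also cannot be told apart, since all 3 methotrexate libraries carry both. FABP4, a fatty acid carrier of adipocytes, was at 4408 to 5309 CPM in these 3 libraries and at 0 to 0.127 with both agents. The brush border peptidase gene MME was at 1436 to 1523 CPM in them and at 0.0456 to 0.388 with both agents. The fibroblast and adipocyte marker levels go against the labelled cell type, so whether the 3 libraries are what their labels say is in doubt. They are called methotrexate libraries below by their label only, and a difference from them is a difference between libraries so labelled.

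For that reason the counts of called genes in comparisons with the methotrexate libraries are given under 2 scalings. The main scaling (TMM, the trimmed mean of M-values) assumes that most genes keep their level. The epithelial scaling sets libraries equal on the median ratio of 42 brush border and tight junction genes, MME among them. The second scaling changes only the library factors, so it shifts the log2 fold changes of all genes by nearly the same amount. Between methotrexate and control it moves the median over all 16733 tested genes from 0.03 to 0.87. The family's median is therefore set beside that of all genes in each comparison with these libraries. For both agents against methotrexate and for the interaction the shift is downward. A TMM call in the direction of the shift is almost bound to recur under the second scaling. Such a recurrence adds no separate support.

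In control spheroids the family was expressed well above the typical gene. The median member stood at 27.4 CPM per kilobase of gene length, compared with 4.38 for the median tested gene, and 70 of the 77 members lay above that value. The highest was MRPL51, a mitochondria-specific protein of the large subunit, at 134 CPM per kilobase (SD 9.36, n = 3). It was followed by MRPS34 at 130, MRPL23 at 119, MRPL14 at 101 and MRPL11 at 100 CPM per kilobase. The neighbours MRPL51 and MRPS34 differed by less than their SDs of 9.36 and 8.69, as did MRPL14 and MRPL11, whose SDs were 9.56 and 6.63. MRPL23 lies beside the exit tunnel and MRPL14 at the interface between the subunits, and MRPL11 builds the stalk base where translation factors dock.

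**Figure D1:**
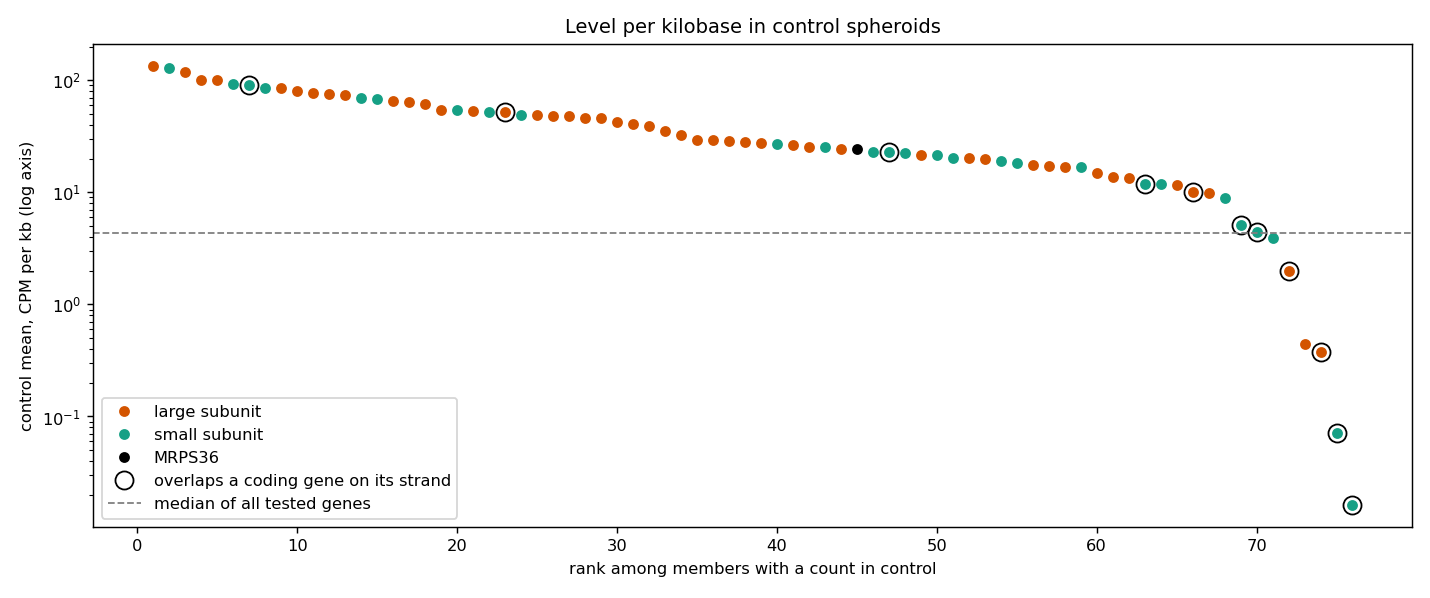
Mean level in the 3 control libraries in CPM per kilobase (log axis) for each member with a count in control, ordered from highest to lowest rank. Orange points are large subunit genes, green points small subunit genes and the black point MRPS36, rings mark members that overlap a coding gene on their strand, and the dashed line is the median of all tested genes at 4.38 CPM per kilobase. Most members lie between that line and the 134 CPM per kilobase of MRPL51.

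At the other end of the order were 5 members with little or no signal per kilobase. MRPL46 stood at 0.45 CPM per kilobase and MRPL38 at 0.38. MRPS24, a small subunit protein at the channel where the message enters, stood at 0.0707 CPM per kilobase. The second MRPS17 entry stood at 0.02 and MRPL30 had 0 to 3 counts per library, and these 2 were too low to be tested, which left 75 members. A count of 3 corresponds to 0.0495 to 0.16 CPM in these libraries, and such floors cover counting error only. MRPL30, MRPL38, MRPS24 and both MRPS17 entries overlap a coding gene on the same strand, and MRPL46 overlaps none. The only such gene at MRPS24, RP5-1165K10.1, had 0 counts in all 12 libraries. Those at MRPL38, FBF1 and RP11-552F3.12, stood at 1.57 and 0.0423 CPM in control, and those at MRPL30, LIPT1 and C2orf15, at 2.26 and 8.32. GBAS, at the MRPS17 locus, stood at 60.2 CPM. How reads shared between such genes were assigned was not tested.

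The libraries labelled methotrexate were first compared with control, without taking the difference as an effect of the drug. MRPS21, MRPS15 and MRPS11 of the small subunit rose under both scalings. MRPL11, MRPL21 and MRPL48 of the large subunit fell under TMM scaling and were not called under epithelial scaling. By edgeR's quasi-likelihood F test with Benjamini-Hochberg adjustment over all tested genes, 15 members were called higher and 27 lower of 75. The called share was 56%, compared with 64.5% of all tested genes, where 35.4% were higher and 29.1% lower. Under epithelial scaling 65 members were called higher and 0 lower, beside 71.9% and 1.11% of all tested genes. Of the 27 members lower under TMM, 19 were called higher and 8 were not called under epithelial scaling, and 0 were called lower. All 15 members higher under TMM were also higher under epithelial scaling, which its upward shift makes almost certain. The median log2 fold change of the members was -0.12 under TMM, beside 0.03 for all tested genes, so the family median lay below that of all genes. Under epithelial scaling these medians were 0.73 and 0.87. That scaling shifts all genes by nearly the same amount, so the same order was almost bound to recur and adds no separate support.

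**Figure D2:**
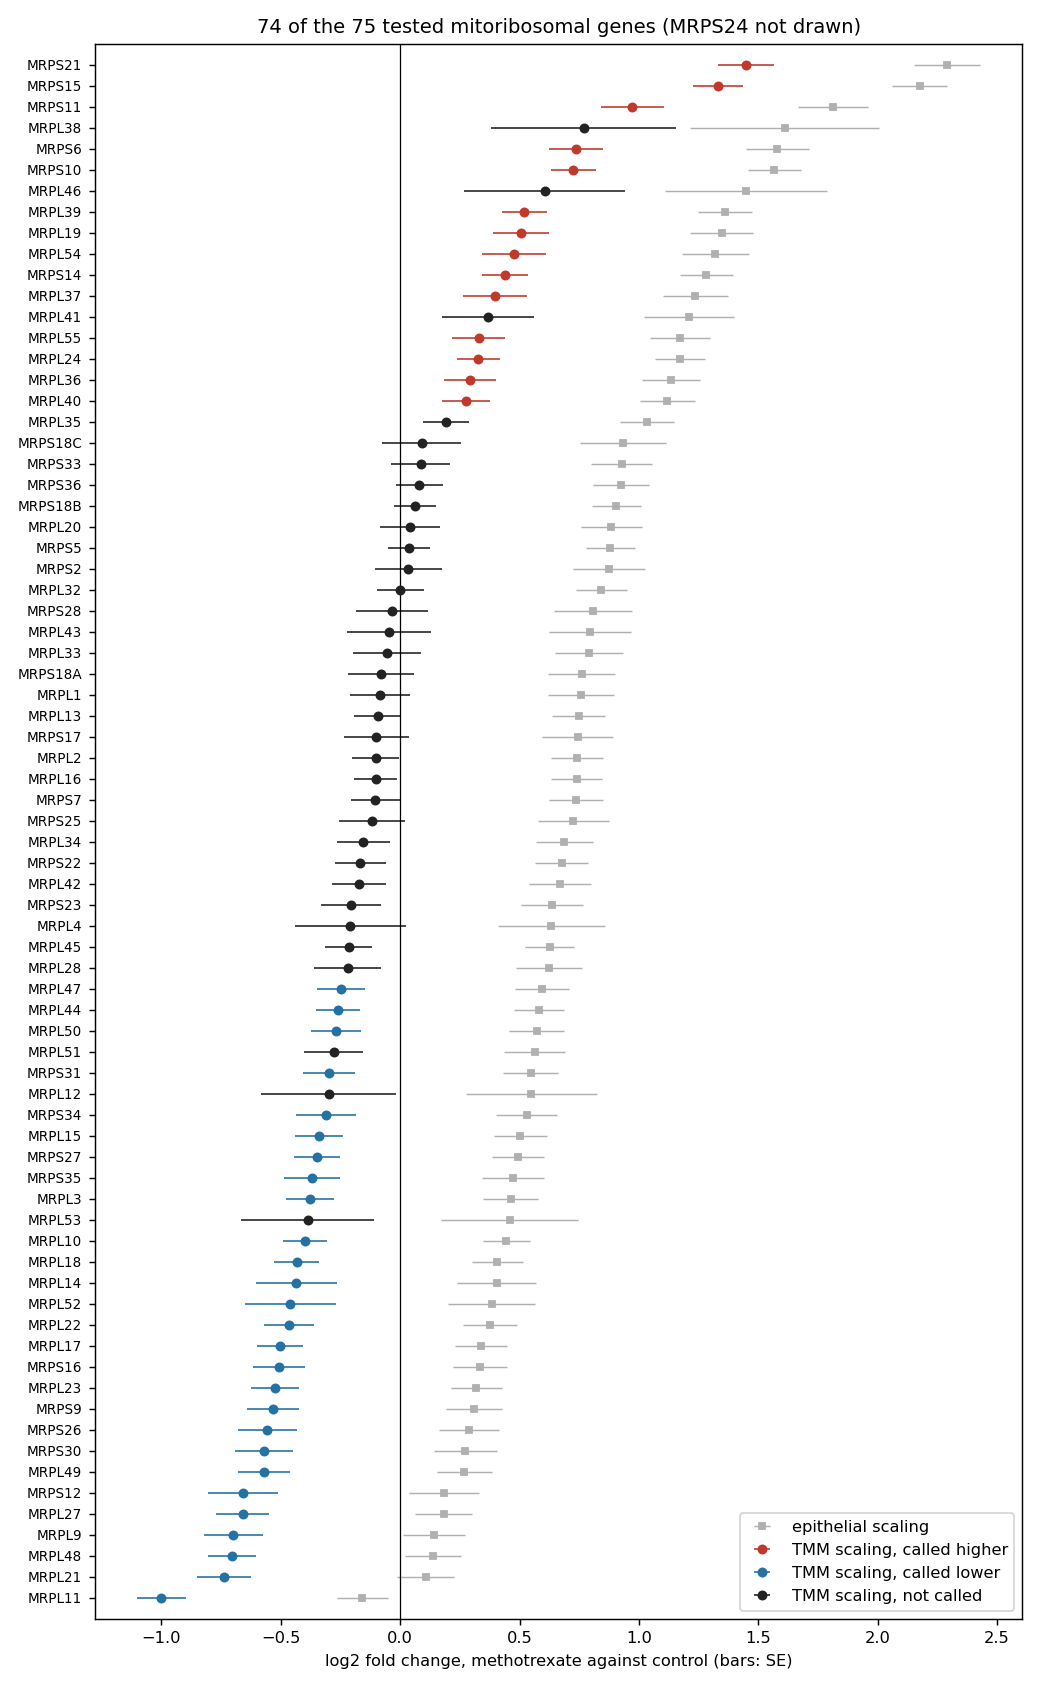
Log2 fold change between methotrexate and control (x axis, bars are SE) for 74 tested members (y axis), with MRPS24 left out for its low counts. Red, blue and black points are values under TMM scaling called higher, called lower and not called, and grey squares are the same members under epithelial scaling. Under TMM the values run from -1.0 for MRPL11 to 1.45 for MRPS21.

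The spread among members was wide relative to the error of each. The middle members by rank ran from -0.38 to 0.14 (quartiles of the log2 fold change), with a median SE of 0.11. The libraries of the groups did not overlap for 18 members higher in methotrexate and 33 lower, beside 38.6% and 32.9% of all tested genes. At the submitters' criterion of a change over 2-fold with adjusted p under 0.01, 3 members passed (MRPS21, MRPS15 and MRPS24), all higher, beside 27% of all tested genes in either direction.

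MRPS21 is a short small subunit protein with a bacterial relative, on chromosome 1 from 150266289 to 150281414 (hg19, plus strand). Its level was 13.5, 11.6 and 13.6 CPM in the control libraries and 33.3, 38.1 and 34.1 in methotrexate. It was 14.0, 15.4 and 13 with lactoferrin and 12.6, 13.3 and 15 with both agents. The 3 methotrexate libraries lay far above the other 9, which overlapped one another. Its log2 fold change against control was 1.45 ± 0.12 (SE) by edgeR's quasi-likelihood F test with Benjamini-Hochberg adjustment (adjusted p = 2.55e-08), and 2.29 under epithelial scaling.

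MRPS15 encodes another small subunit protein with a bacterial relative, which binds the central part of the ribosomal RNA. It lies on chromosome 1 from 36921319 to 36930038. Its level was 47.9, 49.2 and 47.0 CPM in control and 115, 131 and 117 in methotrexate. With lactoferrin it was 45.1, 41.6 and 42.6 CPM, and with both agents 42.9, 45.9 and 35.6. Only the methotrexate libraries were raised, and all 6 lactoferrin-containing libraries lay below all 3 controls. Its log2 fold change for methotrexate was 1.33 ± 0.10 (SE) by edgeR's quasi-likelihood F test with Benjamini-Hochberg adjustment (adjusted p = 1.47e-08), and 2.18 under epithelial scaling.

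MRPS11, a protein of the small subunit's platform, lies on chromosome 15 from 89010684 to 89022222. Its level was 33.3, 34.4 and 43.0 CPM in control and 70.2, 77.1 and 69.9 in methotrexate. The groups did not overlap, and the log2 fold change was 0.97 ± 0.13 (SE) by edgeR's quasi-likelihood F test with Benjamini-Hochberg adjustment (adjusted p = 8.60e-06), or 1.81 under epithelial scaling. Its divergent neighbour MRPL46, of the large subunit, was at 3.98, 1.61 and 1.86 CPM in control and 2.81, 4.93 and 3.43 in methotrexate. Those values overlap, and MRPL46 was not called under TMM, with a log2 fold change of 0.60 (1.45 and called under epithelial scaling). Single libraries decide that value, which was 0.35 without methotrexate library 2 and 1.10, and called, without control library 1. It was also called without the filter on low counts (0.64).

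The next rises were in MRPS6, MRPS10 and MRPL39, each higher under both scalings. MRPS6 went from a mean of 20.0 to 33.4 CPM (log2 0.74, 1.58 under epithelial scaling). SLC5A3, a transporter gene inside the MRPS6 locus on the same strand, went from 28.1 to 46.3 CPM, and the part of its reads in the MRPS6 value was not tested. MRPS10, in the head of the small subunit, went from a mean of 40.2 to 66.5 CPM (log2 0.72, 1.57 under epithelial scaling). MRPL39, a mitochondria-specific large subunit protein, went from 20.1 to 28.9 CPM (log2 0.52, 1.36 under epithelial scaling). The other members called higher were MRPS24, MRPL19, MRPL54, MRPS14, MRPL37, MRPL55, MRPL24, MRPL36 and MRPL40. Leaving out MRPS24, these ran from 0.28 for MRPL40 to 0.50 for MRPL19, and all were higher under epithelial scaling too.

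MRPS24 gave the largest log2 fold change of the 75 tested members, 4.29 under TMM and 5.12 under epithelial scaling, from very few reads. It had 5, 0 and 3 counts in control, 1, 2 and 4 with lactoferrin, 3, 0 and 3 with both agents, and 99, 114 and 123 in methotrexate. Even in the methotrexate libraries this was 2.21 to 2.44 CPM, so the counted reads went from the floor to a low level. The gene lies inside RP5-1165K10.1 on the same strand, which had 0 counts in all 12 libraries. How reads shared by these genes were assigned was not tested, so the counts may not measure the level of MRPS24.

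MRPL11 showed the largest fall under TMM scaling, which was not called under epithelial scaling (log2 -0.16, adjusted p = 0.196 by edgeR's quasi-likelihood F test with Benjamini-Hochberg adjustment). The gene lies on chromosome 11 from 66202546 to 66234209, on the minus strand. Its level was 228, 204 and 231 CPM in control and 118, 113 and 100 in methotrexate. It was 199, 205 and 203 with lactoferrin and 210, 208 and 168 with both agents. The methotrexate libraries lay below all 9 others on this scaling. The TMM log2 fold change was -1.0 ± 0.10 (SE; adjusted p = 4.15e-07 by edgeR's quasi-likelihood F test with Benjamini-Hochberg adjustment).

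MRPL21 and MRPL48, both also on chromosome 11, were the next lower under TMM, and neither was called under epithelial scaling. MRPL21, a large subunit protein with a bacterial relative, was at 105, 92.1 and 92.9 CPM in control and 56.0, 59.8 and 58.4 in methotrexate (log2 -0.74 under TMM and 0.11 under epithelial scaling). MRPL48, a mitochondria-specific protein of the central protuberance, was at 50, 46.1 and 50 CPM in control and 32.1, 28.5 and 29.2 in methotrexate (log2 -0.70 and 0.14). For both genes the groups did not overlap under TMM, and the sign turned with the scaling.

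MRPL9, MRPL27 and MRPS12 followed, again lower under TMM and without a call under epithelial scaling. MRPL9, the protein at the base of the stalk beside the exit site, went from a mean of 34.0 to 21.0 CPM (log2 -0.70 and 0.14). MRPL27, which reaches towards the peptidyl transferase centre, went from 113 to 71.5 CPM (log2 -0.66 and 0.18). MRPS12, the small subunit protein at the decoding site whose bacterial relative carries streptomycin resistance, went from 105 to 66.6 CPM (log2 -0.66 and 0.18). The remaining members lower under TMM ran from -0.57 for MRPL49 to -0.25 for MRPL47, and under epithelial scaling all of them were called higher except MRPS30 and MRPL52, which were not called.

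**Figure D3:**
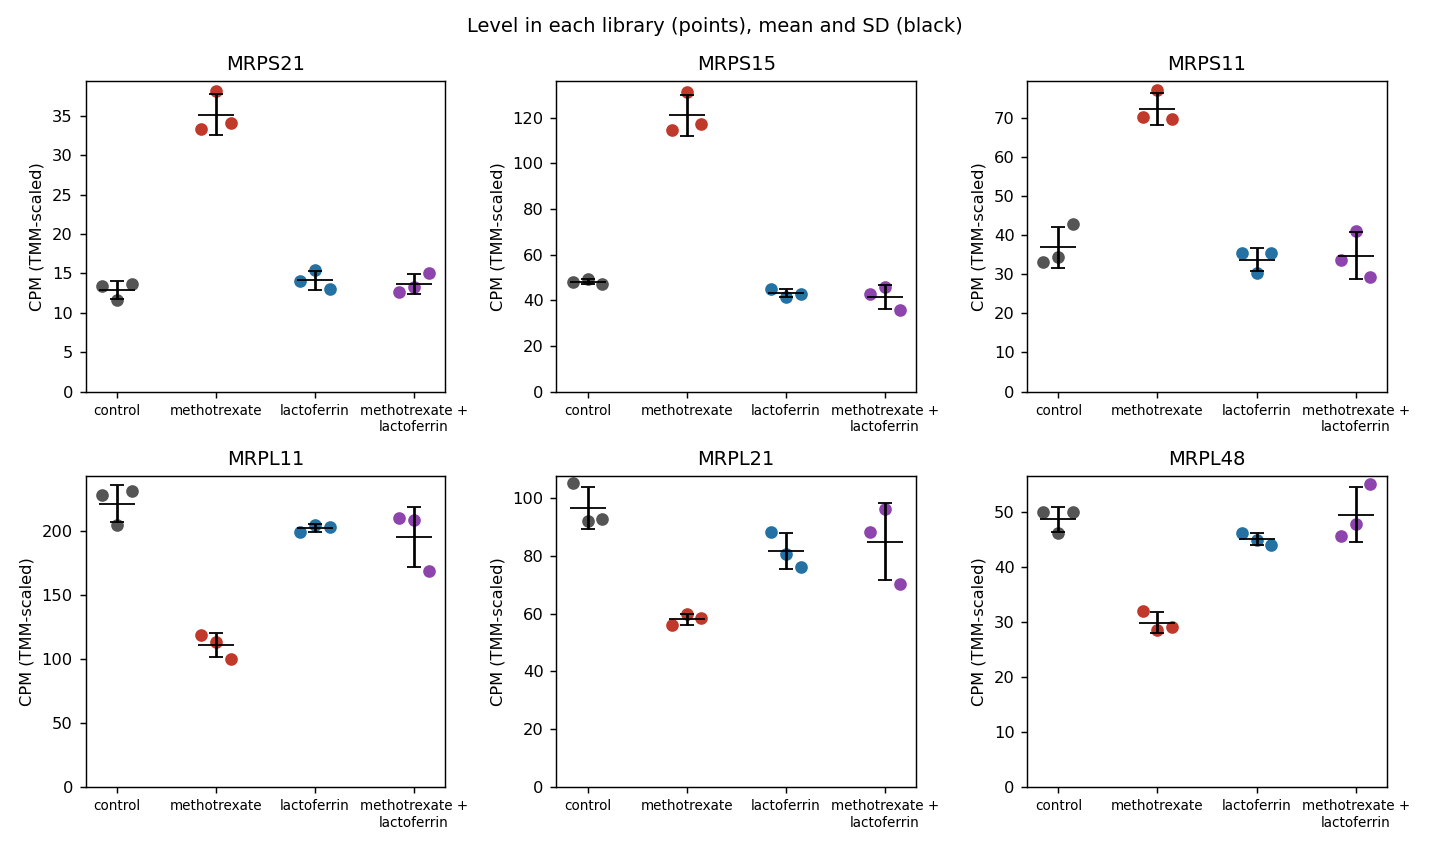
Level in CPM (y axis, TMM-scaled) of 6 members in each of the 12 libraries, grouped as control, methotrexate, lactoferrin and both agents, with points for libraries and black marks for the mean and SD. MRPS21, MRPS15 and MRPS11 are raised in the 3 methotrexate libraries, and MRPL11, MRPL21 and MRPL48 are lower there on this scaling.

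By subunit, 8 of 48 tested large subunit genes were called higher and 19 lower under TMM (median log2 fold change -0.21), and 7 of 26 small subunit genes higher and 8 lower (median -0.07). Under epithelial scaling 39 of 48 large and 25 of 26 small subunit genes were called higher and 0 lower. The members with a bacterial relative had 10 higher and 16 lower of 46 under TMM, and the mitochondria-specific ones 5 higher and 11 lower of 28, with medians of -0.10 and -0.21. Under epithelial scaling 40 of the 46 and 24 of the 28 were higher and 0 lower. Among the 31 members that overlap no other gene, 8 were higher and 14 lower under TMM, and 27 higher and 0 lower under epithelial scaling. Of 27 tested members with an ETS core in the promoter, 4 were higher and 10 lower under TMM (median -0.21), and 22 higher and 0 lower under epithelial scaling (0.64). Of 39 with a window but no ETS core, 11 were higher and 13 lower (-0.10), and 35 higher and 0 lower under epithelial scaling (0.74). All these shares stand beside 35.4% higher and 29.1% lower of all tested genes under TMM and 71.9% and 1.11% under epithelial scaling, and no difference between these sets of members was tested.

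The balance between the subunits does not depend on the scaling, because it is a ratio within a library. Summed small subunit counts divided by summed large subunit counts were 0.509, 0.508 and 0.507 in control and 0.570, 0.570 and 0.572 in methotrexate. The ratio was 0.512, 0.542 and 0.517 with lactoferrin and 0.515, 0.512 and 0.563 with both agents. All methotrexate libraries were above all others, but the third library with both agents came close to them and the second lactoferrin library lay between. These 2 libraries were alike across genes, with a correlation of 0.789 between their deviations from their group means over the tested genes. Control library 1, with a ratio of 0.509, correlated with the lactoferrin library at 0.516 and with the other at 0.489. Methotrexate library 3 did so at 0.288 and 0.291. All other libraries outside their own groups correlated negatively with them. Deviations sum to 0 within each group of 3, so a positive value for 1 library largely forces negative values for its fellows. The negative signs therefore add no separate support. Fibroblast markers summed to 109 CPM in the third library with both agents and 105 CPM in the second lactoferrin library, beside 106 to 121 CPM in control. Adipocyte markers summed to 200 and 184 CPM in these 2 libraries, beside 186 to 197 in control. Endothelial markers summed to 3.38 and 2.21 CPM, beside 1.89 to 2.64 in control. The part of other cell types' RNA in these 2 libraries was not tested.

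**Figure D4:**
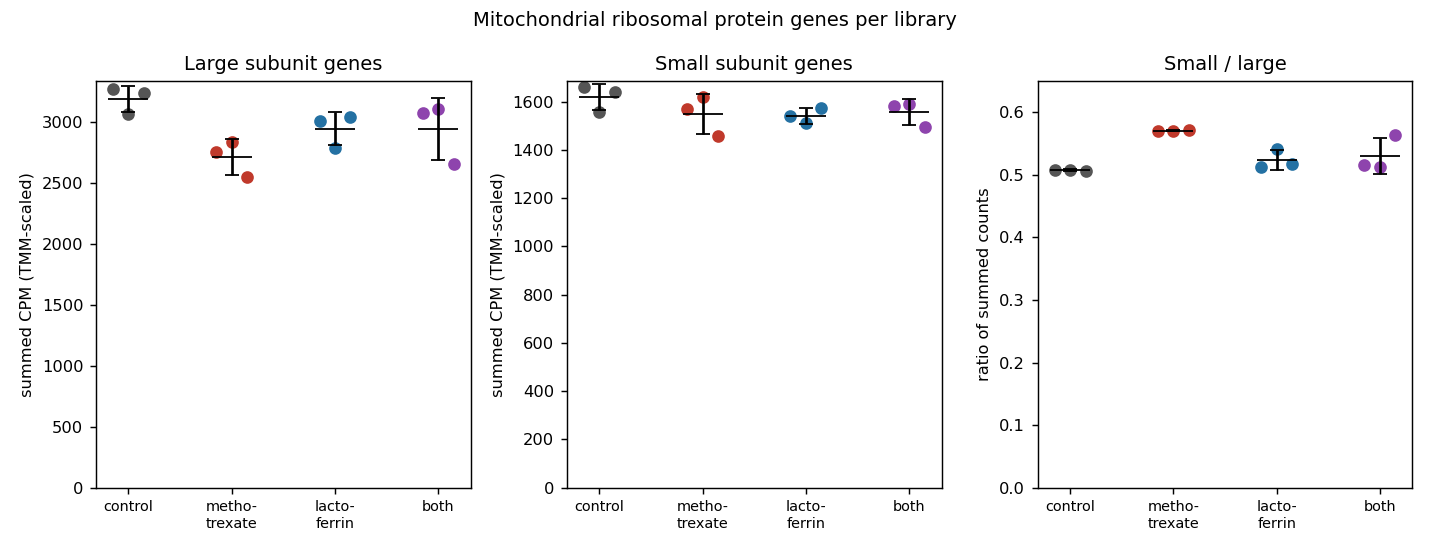
Summed level of the large subunit genes and of the small subunit genes (y axes, CPM, TMM-scaled) and the ratio of small to large subunit counts, in each of the 12 libraries, with black marks for mean and SD. The ratio is 0.507 to 0.509 in control and 0.570 to 0.572 in methotrexate, and 1 library of the lactoferrin group and 1 of the group with both agents stand apart from their fellows.

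The whole family summed to 4963, 4651 and 4901 CPM in control and to 4351, 4489 and 4037 in methotrexate under TMM. Under epithelial scaling the same sums were 4963, 4548 and 5012 in control and 7720, 8156 and 7223 in methotrexate. The direction of the sum thus turned with the scaling. Lactoferrin libraries summed to 4572, 4327 and 4645 CPM and those with both agents to 4686, 4730 and 4181, so that all 3 lactoferrin libraries lay just below the control range and those with both agents lay within or below it. Under epithelial scaling the lactoferrin sums were 4651, 4400 and 4714 CPM and overlapped the control.

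Several members have roles or histories of their own. MRPS18A, MRPS18B and MRPS18C, 3 relatives of a single bacterial protein, had log2 fold changes of -0.08, 0.06 and 0.09 and were not called, while under epithelial scaling all 3 were higher (0.76, 0.90 and 0.93). MRPS30 was lower under TMM (-0.57) and not called under epithelial scaling (0.27). MRPS36 stood at 0.08 and was not called, and at 0.92 and higher under epithelial scaling. MRPL12, which has also been reported to bind the mitochondrial RNA polymerase, stood at -0.30 and was not called under either scaling (0.55 under epithelial scaling). It overlaps SLC25A10, at 20.4 CPM in control, on the same strand. Among the most abundant members per kilobase, MRPL23, MRPL14 and MRPS34 were lower under TMM (-0.52, -0.44 and -0.31) and higher under epithelial scaling (0.32, 0.40 and 0.53). MRPL51 was not called under TMM (-0.28) and was higher under epithelial scaling (0.56). It was called lower under TMM without lactoferrin library 2 or without library 2 or 3 of both agents, and in a fit of the 2 compared groups alone. The MRPS34 call was lost when control library 2 or 3 or methotrexate library 2 or 3 was left out, with DESeq2 and with a replicate block (-0.32), and the MRPL14 call without library 1 or 3 of either group.

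Lactoferrin alone was compared with control to describe the response to the milk protein. No member was called by edgeR's quasi-likelihood F test with Benjamini-Hochberg adjustment, and 0 of 16733 genes were (0%). DESeq2 also called 0 members and 0% of genes. The unadjusted p was under 0.05 for 4 members, all lower, beside 3.75% of all tested genes: MRPS6 (log2 -0.31 ± 0.12 SE), MRPS33 (-0.31 ± 0.13), MRPL9 (-0.26 ± 0.12) and MRPL21 (-0.24 ± 0.11). The median member stood at -0.10, with quartiles of -0.17 and -0.02, and 60 of the 75 lay below 0. For all genes the median was 0.00 and 7947 of 16733 lay below 0. Under epithelial scaling the median member stood at -0.08. The libraries did not overlap for 12 members, all lower with lactoferrin, beside 5.18% higher and 4.91% lower of all tested genes. These were MRPL21, MRPL22, MRPL33, MRPL35, MRPL36, MRPL39, MRPL49, MRPL52, MRPS6, MRPS15, MRPS18B and MRPS33. MRPS6, for example, was at 21.9, 17.9 and 20.3 CPM in control and 15.9, 15.7 and 17.0 with lactoferrin, which do not overlap. None of these differences passed the adjustment.

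Both agents together were compared with the same control libraries. No member was called by edgeR's quasi-likelihood F test with Benjamini-Hochberg adjustment, beside 5 of 16733 genes (0.0299%), all 5 of them higher. DESeq2 called 0.109% of the genes it tested and no member. The unadjusted p was under 0.05 for 2 members, MRPL28 (log2 -0.36 ± 0.14 SE) and MRPL52 (-0.43 ± 0.19), beside 3.53% of all tested genes. MRPL52 was at 62.1, 58.2 and 56.0 CPM in control and 49.4, 55.1 and 26.4 with both agents, where the third library gave most of the difference. The libraries did not overlap for 6 members, all lower, beside 4.19% higher and 3.65% lower of all tested genes. The median member stood at -0.08. The 2 comparisons share their controls, and the 12 members named above for methotrexate stood between -0.31 and 0.13 with lactoferrin and between -0.21 and 0.08 with both agents.

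**Figure D5:**
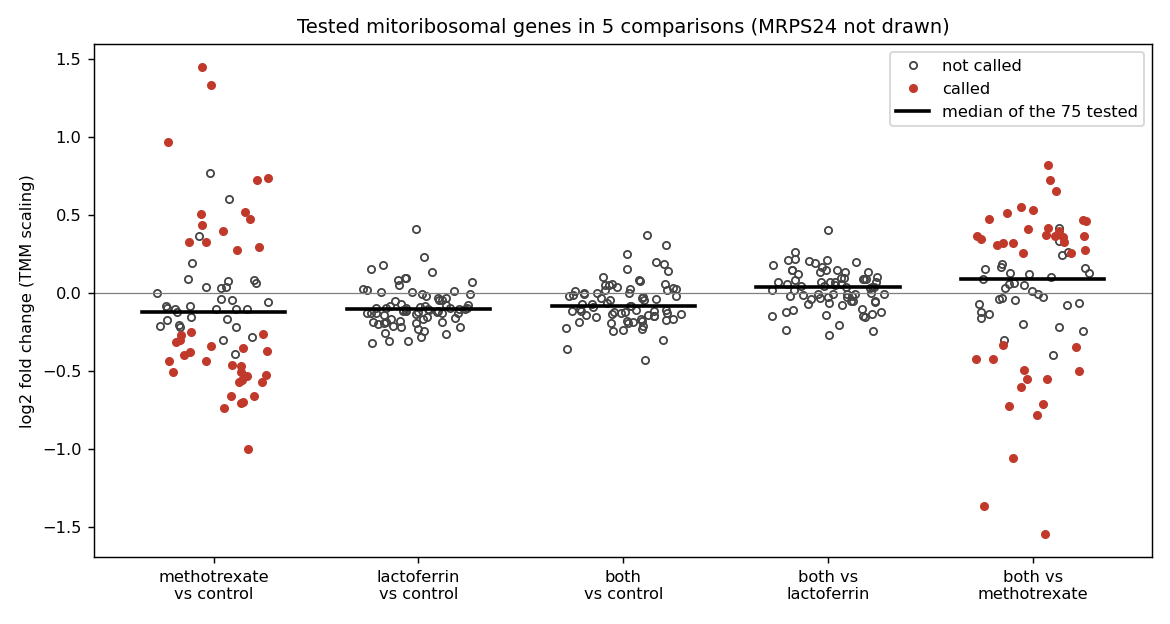
Log2 fold change under TMM scaling (y axis) of 74 tested members (points, MRPS24 left out) in 5 comparisons (x axis), with called members in red, others as open points and the median of the 75 tested members as a black line. The points spread widely where the methotrexate libraries enter and lie close to 0, with medians of -0.10, -0.08 and 0.04, in the 3 comparisons without them.

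Both agents against lactoferrin alone gave 0 called members by edgeR's quasi-likelihood F test with Benjamini-Hochberg adjustment, beside 3 of 16733 genes (0.0179%), all higher. DESeq2 called 0.0213% of genes and no member. The unadjusted p was under 0.05 for MRPS18C (log2 0.41 ± 0.17 SE) and MRPS6 (0.26 ± 0.12), beside 3.37% of all tested genes. The libraries did not overlap for 6 members higher and 1 lower (MRPL24), beside 3.67% and 3.22%. In these 3 comparisons the number of called members stayed 0 in fits without the methotrexate libraries.

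Both agents were then compared with methotrexate alone, which by the labels differ in the added lactoferrin. This comparison shares the methotrexate libraries, and the doubt about their labels, with the first. Under TMM scaling 25 members were called higher and 16 lower with both agents by edgeR's quasi-likelihood F test with Benjamini-Hochberg adjustment, 54.7% of 75, beside 63.2% of all tested genes (28.8% higher and 34.4% lower). Under epithelial scaling 0 were higher and 66 lower, beside 1.75% and 69.8% of all tested genes. The median member stood at 0.09 under TMM and -0.70 under epithelial scaling, beside -0.01 and -0.80 for all tested genes. The libraries did not overlap for 26 members higher and 19 lower, beside 30.2% and 36.3%. Past 2-fold at adjusted p under 0.01 there were 4 members, MRPS24, MRPS15, MRPS21 and MRPS11, all lower, beside 26.3% of all tested genes in either direction.

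MRPS24, from very few reads, fell most (log2 -4.64, and -5.43 under epithelial scaling). Among members whose average log2 CPM reached 1, the largest falls were MRPS15 (log2 -1.55 ± 0.11 SE), MRPS21 (-1.36 ± 0.12), MRPS11 (-1.06 ± 0.13), MRPS6 (-0.78), MRPS10 (-0.73) and MRPL54 (-0.71), all lower under epithelial scaling too. MRPL54, a mitochondria-specific large subunit protein, was at 46.5, 52.1 and 43.2 CPM in methotrexate and 30.3, 32.8 and 23.7 with both agents, with no overlap. The largest rises under TMM were MRPL11 (0.82), MRPL48 (0.73), MRPL9 (0.65), MRPL21 (0.55), MRPS9 (0.53) and MRPS35 (0.51), none of which was called under epithelial scaling, where the last 5 stood at -0.06, -0.14, -0.25, -0.26 and -0.28. MRPS9, in the head of the small subunit, was at 26.4, 25.8 and 26.4 CPM in methotrexate and 39.6, 39.3 and 34.9 with both agents.

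The interaction tested whether the methotrexate difference was the same with and without lactoferrin. It was called for 21 members above 0 and 12 below 0 by edgeR's quasi-likelihood F test with Benjamini-Hochberg adjustment, 44% of 75, beside 46.7% of all tested genes (20.6% and 26.1%). Under epithelial scaling 0 were above and 55 below, beside 0.663% and 59.7%. The median member stood at 0.18 under TMM and -0.64 under epithelial scaling, beside -0.04 and -0.85 for all tested genes. Over 2-fold at adjusted p under 0.01 there were 3 members, MRPS24, MRPS21 and MRPS15, all below 0, beside 19.7% of all tested genes. The count below 0 was 7 without methotrexate library 2 or without lactoferrin library 3.

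Other genes of the same pathway were taken from lists of known roles, and their counts are for methotrexate against control under TMM unless stated. They stand beside 35.4% higher and 29.1% lower of all tested genes, and under epithelial scaling, where 0 genes of these lists were lower, beside 71.9% higher and 1.11% lower. Of 7 mitochondrial ribosome subunits listed under other names, 0 were higher and 4 lower (median log2 fold change -0.27, and all 7 higher under epithelial scaling), led by GADD45GIP1 at -0.46 (0.38 under epithelial scaling). MRPL58 stands in that list under its older name ICT1. Of 15 translation factors 4 were higher and 2 lower (14 higher under epithelial scaling), with GFM2, a ribosome recycling factor, at 0.61 and the initiation factor MTIF3 at 0.57, both also higher under epithelial scaling. Of 23 assembly and ribosomal RNA modification factors 4 were higher and 5 lower (22 higher under epithelial scaling), with the small subunit assembly factor RBFA at 1.66 (2.51 under epithelial scaling). Of 20 genes for mitochondrial tRNA charging 3 were higher and 6 lower (16 higher under epithelial scaling), with PET112 at 0.85 (1.70 under epithelial scaling) and LARS2 at -0.60 (0.24, not called, under epithelial scaling).

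Of 16 genes of mitochondrial transcription and RNA handling 3 were higher and 8 lower under TMM (13 higher under epithelial scaling), with the transcription factor TFAM at -0.75 (0.09, not called, under epithelial scaling). Of 10 regulators of mitochondrial biogenesis 2 were higher and 7 lower, and under epithelial scaling 5 were higher and 0 lower. PPARGC1A, the coactivator PGC-1alpha, stood at 5.49 (6.31), and its relative PPARGC1B at -0.98 (-0.14, not called). The PPARGC1A value starts near the floor, with 0 to 0.144 CPM in control and only 2.27 to 4.15 CPM in methotrexate. Of 83 tested cytosolic ribosomal protein genes 5 were higher and 53 lower under TMM (median -0.38), and 67 higher and 0 lower under epithelial scaling. In lactoferrin against control 0 genes of any of these lists were called.

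Of the 13 mitochondrially encoded mRNAs, the messages that these ribosomes translate, 12 were higher in methotrexate and 0 lower (median log2 fold change 1.67), and all 13 were higher under epithelial scaling (2.51). MT-ND2, a subunit of complex I, stood at 2.74. The ratio of mitochondrially encoded mRNA counts to member counts, which no scaling alters, was 3.85 to 6.72 in control, 4.96 to 6.28 with lactoferrin, 5.47 to 5.67 with both agents and 17.9 to 21.1 in methotrexate. The methotrexate libraries did not overlap any other group in this ratio. Mitochondrial genes took 2.00 to 3.34% of all counts in control and 6.67 to 7.54% in methotrexate. Cytosolic ribosomal protein counts per member count were 15.4 to 17.0 in control and 13.2 to 14.6 in methotrexate.

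The family has many processed copies in the genome, and 66 pseudogene entries of the table carry a member's name. Their summed level was 4.79 to 9.46 CPM over the libraries, led by MRPL45P2 at 4.13 CPM in control and 7.84 in methotrexate. The members themselves summed to 4037 to 4963 CPM. Whether reads were divided between MRPL45 and its copy was not tested.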

How the data were processed

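Bulk RNA of 12 Caco-2 spheroid libraries, 3 in each of 4 groups, was sequenced. The deposited values are whole-number counts per gene, not normalized; per the submitters' processing notes CASAVA, STAR, DESeq2 and hg19 were used, and their versions, the counter and its strand setting are not given there. Gene lengths in the same deposited table were used for levels per kilobase. Counts were analysed with edgeR 4.0.16 in R 4.3.3: filterByExpr on the groups left 16733 of 48162 genes (75 of 77 members), libraries were TMM-scaled, 1 mean per group was fitted to all 12 libraries (biological coefficient of variation 12.9%), and quasi-likelihood F tests of 6 contrasts were adjusted by Benjamini-Hochberg over all tested genes and called under 0.05. DESeq2 1.42.0 and other settings were alternatives. Scripts were checked on simulated data. Replicates differed beyond counting noise (chi-square per degree of freedom 9.94 to 65.2), so none was counted as a repeat.

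Members named with values were, per contrast, up to 6 with the largest rise and 6 with the largest fall among those called, the 5 highest and 5 lowest in control per kilobase, and members with separate roles. MRPS24 (average log2 CPM under 1) and the members named for unadjusted p-values, overlap or the 2-fold criterion were added after their values were seen. The members and lists were chosen with earlier results of these data known. The endothelial marker PECAM1 was not analysed here.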

Additional observations from a re-analysis of the deposited data

Results flagged for a closer look

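The difference between methotrexate and no methotrexate was not the same with and without lactoferrin for 12 members, named for the largest interaction among those whose average log2 CPM reached 1, by edgeR's quasi-likelihood F test with Benjamini-Hochberg adjustment over all genes. The interaction log2 fold change was above 0 under TMM scaling for MRPL11 (0.95), MRPL9 (0.92), MRPL48 (0.84), MRPL21 (0.79), MRPS9 (0.74) and MRPL27 (0.59), and none of these 6 was called under epithelial scaling, where MRPL21, MRPS9 and MRPL27 turned sign. It was below 0 for MRPS21 (-1.50), MRPS15 (-1.39), MRPS11 (-0.93), MRPS10 (-0.72), MRPL54 (-0.62) and MRPL55 (-0.48). All 6 were also below 0 and called under epithelial scaling, which its downward shift makes almost certain. MRPS24, with very few reads and so outside that choice, stood at -4.63. Every one of these values rests on the methotrexate libraries, whose fibroblast and adipocyte markers are raised and whose labels are in doubt, and the part of that RNA in the interaction was not tested. The MRPL54 call was lost without lactoferrin library 3, and the MRPL55 call without control library 1, methotrexate library 2 or lactoferrin library 1, or without the filter on low counts.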

How the results depend on the processing

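The epithelial scaling changed the counts of called members most: methotrexate against control gave 65 higher and 0 lower, both agents against methotrexate 0 higher and 66 lower, and the interaction 0 above and 55 below 0. The submitters' 2-fold criterion gave 3 higher and 0 lower, 0 higher and 4 lower, and 0 above and 3 below 0 in these comparisons. Without the filter on low counts the interaction gave 13 members above 0. Leaving out 1 library at a time gave 12 to 16 higher and 21 to 29 lower for methotrexate against control, 20 to 28 higher and 15 to 16 lower for both agents against methotrexate, and 14 to 24 above and 7 to 12 below 0 for the interaction. Under epithelial scaling the sign turned in methotrexate against control for MRPL21 (0.11), MRPL48 (0.14), MRPL9 (0.14), MRPL27 (0.18), MRPS12 (0.18), MRPS18A (0.76), MRPS30 (0.27), MRPL51 (0.56), MRPS34 (0.53), MRPL23 (0.32) and MRPL14 (0.40). It turned in both agents against methotrexate for MRPL48 (-0.0610), MRPL9 (-0.14), MRPL21 (-0.25), MRPS9 (-0.26) and MRPS35 (-0.28), and in the interaction for MRPL21 (-0.0266), MRPS9 (-0.0753) and MRPL27 (-0.23). These turns of sign follow from the nearly equal shift that this scaling gives to all genes. Which scaling is nearer to the true levels was not tested. The family sum per 1000000 counts of the library total was 5007 in control, 3702 in methotrexate and 4773 with lactoferrin, and per 1000000 nuclear coding counts 5216, 4057 and 4983, with 4982 for both agents. Of 49 single-gene results, RLE factors changed 0 and DESeq2 lost 1 call, MRPS34.

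The labels do not state whether same-numbered libraries are paired. Deviations of same-numbered libraries correlated at -0.694 to 0.472 over 18 pairs, with 8 above 0.1. Those of differently numbered libraries correlated at -0.556 to 0.789 over 36 pairs, with 20 above 0.1. The medians were -0.149 and 0.135. Deviations sum to 0 within each group of 3, which ties these correlations together, so they cannot decide whether the libraries were paired. With the replicate block 15 members were higher and 25 lower in methotrexate against control, and the MRPS34 call was lost (log2 -0.32). Every count of 0 for the comparisons without methotrexate libraries stayed 0 in all alternatives that were run. With 3 libraries a group, small differences may not have been detectable at this depth and spread.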
